A study of Mus musculus with 12 samples.

Results

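The comparison described here is that of beta-catenin activated with wildtype cultured fetal mouse kidneys, among the samples whose titles carry the lower of 2 sets of numbers. These samples, called the lower run, are 6 of the 12 of the series and were chosen by their title numbers alone. The 3 wildtype arrays are called wildtype 1, 2 and 3 and the 3 activated arrays activated 1, 2 and 3, in the order of their title numbers, and a shared number pairs no arrays. The other 6 samples, 3 of each genotype, are called the higher run. The labels leave unsaid what the title numbers mean. In every array 12393 genes were tested, each through 1 probe set of an Affymetrix 3' expression array.

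All the mice were of the C57BL/6 strain, and per the labels' protocols the mothers of wildtype and activated kidneys alike were injected with tamoxifen at 10.5 dpc (days post coitum), 2 mg for 40 g of body weight. Kidneys were taken at 10.5 dpc and cultured for 3 to 4 days in F12/DMEM medium with insulin, transferrin and selenium. The activated kidneys are described in the labels as having tumours. The labels name neither the altered allele of beta-catenin nor the recombinase that tamoxifen would act on, so the cells in which beta-catenin was activated are not known here. Separate animals or cultures are not stated for the samples, and p-values therefore measure the spread between these samples, which may be technical.

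Beta-catenin carries the canonical Wnt signal. Without a Wnt ligand a destruction complex built on Axin and Apc marks it for breakdown, and when Frizzled and Lrp receptors are bound it accumulates and drives transcription with the Tcf and Lef factors in the nucleus. Several of its best known targets are inhibitors of the same pathway and so form a feedback loop. In the fetal kidney, Wnt9b from the ureteric bud acts through beta-catenin on the nephron progenitors of the cap mesenchyme, both to renew them and to start their conversion into epithelium, while a stroma that descends from Foxd1-expressing cells surrounds them.

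Kidney markers were present in the wildtype arrays. On the scale used throughout, log2(intensity + 16) after quantile normalisation, mean values were 10.03 for Six2 (nephron progenitors), 9.45 for Wt1 (progenitors and podocytes), 10.44 for Foxd1 (stroma) and 11.66 for Calb1 (ureteric bud). Ret, the receptor gene of the ureteric tips, lay at 4.55, under the brightest bacterial control probe set of these arrays at 5.45. A gene under that control signal is called dim here. A pair of arrays stood apart. Activated 2 had a Gapdh control log2 ratio of 5' to 3' signal of 0.07, where the other 5 lay between -2.36 and -1.13, and wildtype 2 had Xist at 11.88 and a Y-linked mean of 4.30, where the other 5 had Xist at most 6.08 and a Y-linked mean of at least 7.38. Counts are also given without these arrays.

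Genes higher in the activated kidneys included 7 of 18 measured feedback and secreted inhibitors of the Wnt pathway and 4 of 29 genes of BMP and TGF-beta signalling. Genes lower there included 6 of 25 nephron progenitor genes and 4 of 25 stromal genes. Of 12393 genes, 74 (0.597%) passed the test, 41 (0.331%) higher and 33 (0.266%) lower in the activated kidneys, by limma's moderated test at a Benjamini-Hochberg adjusted p of at most 0.05. Of the 41 genes that rose 10 were dim in wildtype, and of the 33 that fell 4 were dim in the activated kidneys, so that only a lower bound of their fold can be given. In the 31 rises measured in both groups the fold ran from 1.84 to 7.47 with a median of 3.26, and in the 29 such falls from 1.44 to 4.05 with a median of 2.11. In each of the 74 genes the 3 activated values lay wholly above or wholly below the 3 wildtype values, as they did in 1549 (12.5%) of all genes. Genes chosen for low p-values of limma's test in these same arrays would mostly separate, so the separation here and below adds nothing to the calls. At an unadjusted p under 0.05 there were 876 genes (7.07%), 440 (3.55%) higher and 436 (3.52%) lower. Over all genes the median difference, activated minus wildtype, was -0.03 and the median size of a difference 0.18. The difference was positive in 45.6% of all genes. Counts within the gene lists below are to be read against these shares of all genes. The lists were chosen with earlier results of these data known, so a high share in a list may in part be fixed by that choice.

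Among genes measured in both groups the largest rises were those of Apcdd1 (7.47-fold), Notum (7.39-fold), Armh4 (6.98-fold) and Dkk1 (6.96-fold), and the largest falls those of Ntn1 (4.05-fold), Six2 (4.03-fold) and Capn6 (3.95-fold). Among genes dim in 1 group, the highest bounds were those of Wif1 and Nkd2 for the rises and of Dcx for the falls, each given with its gene below. A further 148 genes differed by at least 1 on the log2 scale without passing the test. The 74th gene had an adjusted p of 0.0492 and the next gene one of 0.0521. Because the sample is a whole cultured kidney, fewer cells of a type and less RNA per cell cannot be told apart in any of these values.

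**Figure D1:**
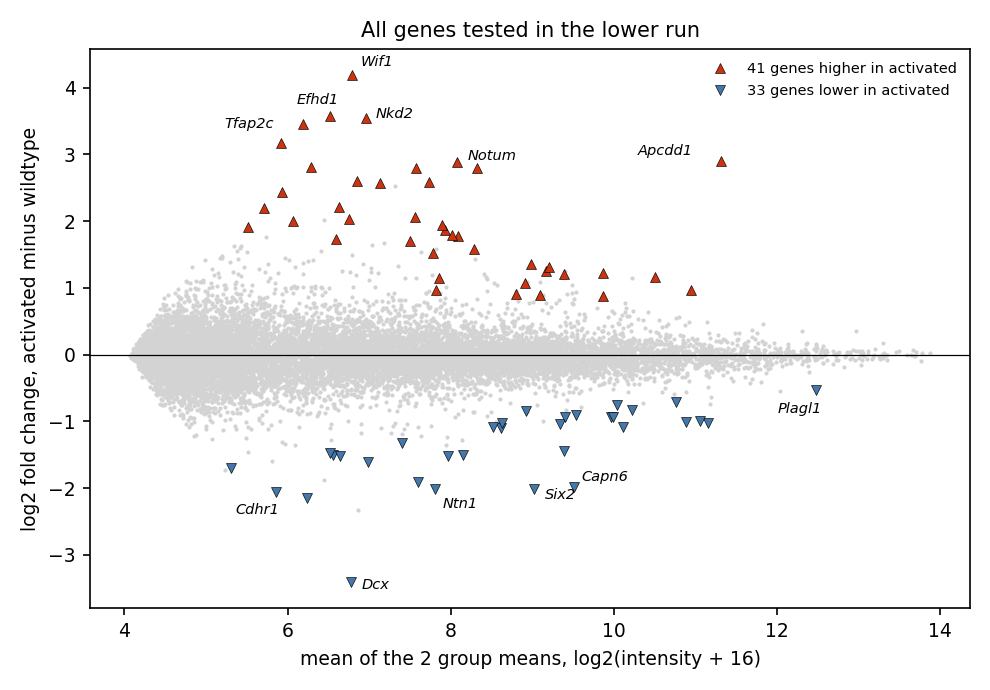
The difference between activated and wildtype kidneys on the log2 scale is plotted against the mean of both group means, log2(intensity + 16), for each of 12393 genes, with the 41 genes that rose as red triangles pointing up, the 33 that fell as blue triangles pointing down and the others in grey. Wif1 at 4.20 and Dcx at -3.41, each dim in 1 group, mark the ends of the fitted range.

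The number of calls changed when single arrays were left out, which also leaves fewer arrays to each test. Without activated 2, 51 genes rose and 36 fell. Leaving out another single array gave between 18 (without activated 1) and 26 (without wildtype 3) that rose and between 9 (without wildtype 2) and 15 (without activated 3) that fell; the counts that rose were 25, 23 and 22 without wildtype 1, wildtype 2 and activated 3, and those that fell 11, 10 and 12 without wildtype 1, wildtype 3 and activated 1. Without both activated 2 and wildtype 2 there were 59 and 33. Of the 74 genes 26 passed in all 6 of the fits without a single array, 18 of them up and 8 down. No called gene could change sign in these fits, because its groups did not overlap. The 26 were Wif1, Efhd1, Nkd2, Tfap2c, Mab21l1, Apcdd1, Notum, Msx2, Armh4, Dkk1, Tent5c, Srgn, En2, Chodl, Axin2, Dclk1, Gnai1 and Itm2a, which rose, and Dcx, Cdhr1, Ntn1, Six2, Capn6, Aldh1a2, Calb1 and Gas1, which fell.

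The list of feedback and secreted inhibitors of the Wnt pathway held the largest group of rises. Of 18 measured genes of this list 7 (38.9%) rose and 0 fell, against 0.331% and 0.266% of all genes, 14 of the 18 differences were positive, and the list median was 0.92 against -0.03 for all genes. Wif1, a secreted protein that binds Wnt ligands, read 5.17, 4.85 and 4.05 in wildtype and 8.67, 9.04 and 8.95 in activated kidneys. Nkd2, which binds Dishevelled inside the cell, read 5.90, 4.36 and 5.29 in wildtype and 8.71, 9.02 and 8.45 in activated kidneys. Apcdd1, a membrane protein that binds Wnt and its receptors, read 10.15, 9.41 and 10.03 in wildtype and 12.81, 12.69 and 12.80 in activated kidneys. In all 3 genes the lowest activated value was well clear of the highest wildtype value. The rise was 4.20 (SE 0.32, adjusted p = 0.000354) for Wif1, 3.54 (SE 0.37, adjusted p = 0.00236) for Nkd2 and 2.90 (SE 0.17, adjusted p = 0.00021) for Apcdd1. Wif1 and Nkd2 were dim in wildtype. Set against the control signal instead of the dim values, as the higher of the array's own value and the brightest bacterial control in each wildtype array, Wif1 was at least 10.8-fold and Nkd2 at least 8.72-fold higher in the activated kidneys, and Apcdd1, bright in both groups, was 7.47-fold higher.

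Notum, an enzyme that removes the lipid from Wnt ligands, read 6.64, 6.70 and 6.57 in wildtype and 9.55, 10.06 and 8.96 in activated kidneys. Dkk1, which blocks the Lrp5 and Lrp6 co-receptors, read 7.17, 6.93 and 6.67 in wildtype and 9.54, 9.84 and 9.79 in activated kidneys. Axin2, a scaffold of the destruction complex that is itself a target of the pathway, read 7.35, 6.86 and 7.38 in wildtype and 9.08, 9.03 and 8.84 in activated kidneys. Frzb, a secreted protein of the Frizzled-related family, read 6.79, 6.76 and 6.41 in wildtype and 8.20, 8.61 and 8.26 in activated kidneys. The groups were apart in these 4 genes as well, most narrowly for Frzb, where activated 1 at 8.20 was nearest to wildtype 1 at 6.79. The rise was 2.89 (SE 0.26, adjusted p = 0.00132) for Notum and 2.80 (SE 0.19, adjusted p = 0.000354) for Dkk1. It was 1.78 (SE 0.20, adjusted p = 0.00379) for Axin2 and 1.70 (SE 0.22, adjusted p = 0.00769) for Frzb. Without wildtype 3, or without activated 1, Frzb no longer passed, and the other 6 genes passed without any single array.

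The other 11 members of the list did not pass. Nkd1, the paralogue of Nkd2, differed by 2.53 (SE 0.62, adjusted p = 0.153) with no overlap of the groups, and Dkk4 by 1.00, while the Frizzled-related genes Sfrp1 and Sfrp2 differed by -0.56 and -0.59, with activated below wildtype; these 4 were named with their values in view. The other probe sets of Apcdd1 gave 3.34, 3.12 and 3.22, and the second probe set of Nkd2 gave 3.07, all with no overlap of the groups. The second probe sets of Axin2 and Frzb gave 0.67 and 1.39, with overlap, and did not pass (adjusted p over all probe sets 0.939 and 0.870).

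**Figure D2:**
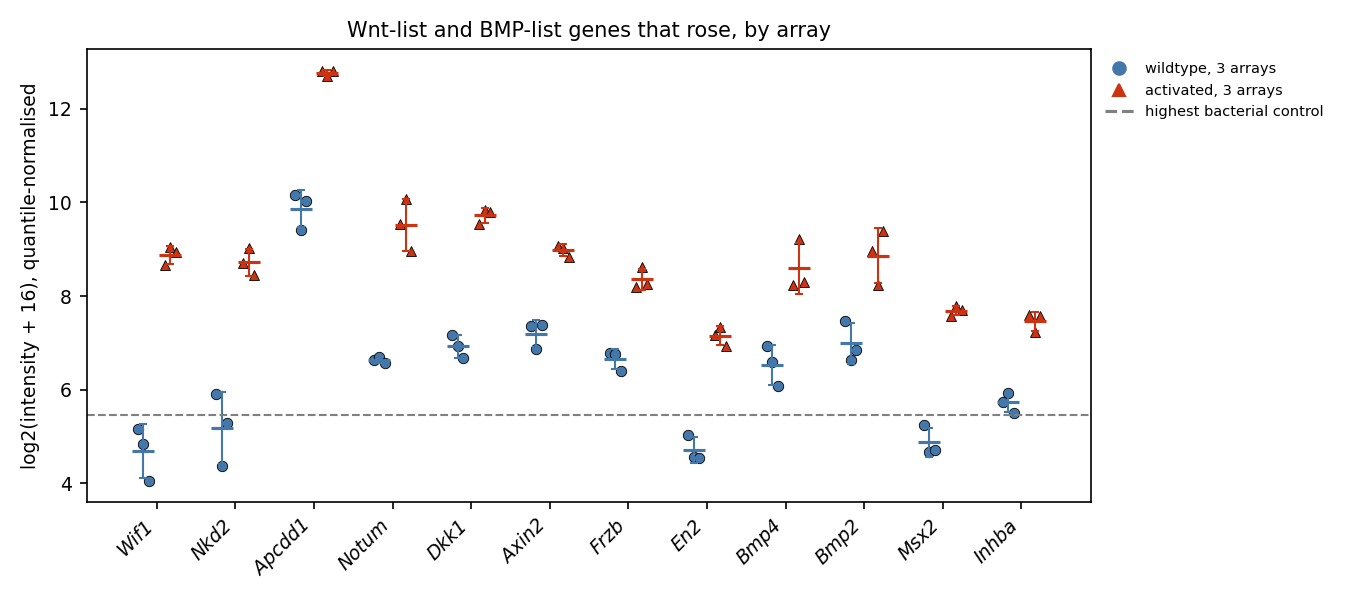
Each array's value, log2(intensity + 16) after quantile normalisation, is shown for the 12 genes of the Wnt and BMP lists that rose, with 3 wildtype arrays as blue circles, 3 activated arrays as red triangles, and bars for the group mean and 1 SD. The groups do not overlap in any of the genes, and the wildtype means of Wif1, Nkd2, En2 and Msx2 lie under the dashed line of the brightest bacterial control at 5.45; values are to be compared within a gene, not between genes.

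Promoter sequence was set beside these rises because Tcf and Lef factors bind a short site. The sequences are RefSeq's, of build GRCm38.p6, and the window searched ran from 250 bases before to 50 after each gene's start, with 52 of the 74 called genes in the table. The letters sought were CTTTGAA and CTTTGAT on both strands, that is also TTCAAAG and ATCAAAG. They were found for 3 of the 30 genes that rose and had a promoter there (10%), for 2 of the 22 that fell (9.09%), for 783 of 9882 tested genes (7.92%) and for 2671 of 27025 genes in the table (9.88%). The shares of called genes are near those of all genes. The 3 genes that rose were Dkk1, Dclk1 and Chodl, and the 2 that fell were Nfia and Foxp1. Shown are the 250 bases before the start for 4 genes of the Wnt inhibitor list that rose and for Six2, the progenitor gene that fell. Matches are in capitals.
Wif1, chr10:121033754-121034003, plus strand: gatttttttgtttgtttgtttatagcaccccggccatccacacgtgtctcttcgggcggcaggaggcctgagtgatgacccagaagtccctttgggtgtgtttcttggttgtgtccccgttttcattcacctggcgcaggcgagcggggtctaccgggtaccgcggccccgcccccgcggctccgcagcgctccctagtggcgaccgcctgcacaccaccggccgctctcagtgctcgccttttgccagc
Nkd2, chr13:73847632-73847881, minus strand: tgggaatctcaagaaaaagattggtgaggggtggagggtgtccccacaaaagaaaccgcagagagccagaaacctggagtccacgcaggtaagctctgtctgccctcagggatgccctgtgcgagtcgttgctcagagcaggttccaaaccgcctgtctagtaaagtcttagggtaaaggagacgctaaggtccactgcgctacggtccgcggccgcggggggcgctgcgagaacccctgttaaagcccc
Axin2, chr11:108920099-108920348, plus strand: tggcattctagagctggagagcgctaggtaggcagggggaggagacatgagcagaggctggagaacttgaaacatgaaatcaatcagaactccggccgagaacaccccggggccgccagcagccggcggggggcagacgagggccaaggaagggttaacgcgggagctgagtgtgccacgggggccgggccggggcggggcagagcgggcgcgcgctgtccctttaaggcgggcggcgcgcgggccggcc
Dkk1, chr19:30549497-30549746, minus strand: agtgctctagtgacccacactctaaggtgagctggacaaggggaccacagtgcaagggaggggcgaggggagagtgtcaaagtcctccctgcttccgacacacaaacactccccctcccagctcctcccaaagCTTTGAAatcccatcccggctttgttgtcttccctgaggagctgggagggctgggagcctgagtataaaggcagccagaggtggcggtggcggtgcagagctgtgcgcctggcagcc
Six2, chr17:85688255-85688504, minus strand: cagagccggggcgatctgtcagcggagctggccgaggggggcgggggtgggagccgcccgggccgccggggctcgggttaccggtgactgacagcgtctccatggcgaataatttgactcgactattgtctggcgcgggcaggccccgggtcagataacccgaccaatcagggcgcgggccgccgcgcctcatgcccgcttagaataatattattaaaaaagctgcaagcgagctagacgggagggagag
The match of Dkk1 begins 117 bases before the start. A match describes letters only, and where none is found these letters are absent from this window and nothing follows about binding elsewhere.

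Other known targets of the pathway gave few calls. Of 26 measured targets 2 (7.69%) rose and 0 fell, against 0.331% and 0.266% of all genes. Of the 26 differences 17 were positive, where 45.6% of all genes differed positively, and the median was 0.23. En2, a homeobox gene of the midbrain and hindbrain, read 5.04, 4.57 and 4.54 in wildtype and 7.17, 7.35 and 6.93 in activated kidneys, a rise of 2.43 (SE 0.28, adjusted p = 0.00388); its wildtype values were dim, and the rise was at least 3.25-fold. Bmp4 is described with its pathway below. Tcf7l1, a Tcf factor that mostly represses targets, missed the threshold at -0.72 (SE 0.13, adjusted p = 0.0537). Sp5 and Tnfrsf19, named with their values in view, differed by 2.02 (adjusted p = 0.0542) and 1.67 (adjusted p = 0.0883), and Sp5 was dim in wildtype. Lef1 and Lgr5, also named with their values in view and often used as reporters of the pathway, differed by 0.51 and 0.86 and did not pass. Myc differed by -0.29 (adjusted p = 0.851).

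The lists of the pathway's upstream parts gave no calls. Axin2 of the destruction complex and Rspo1, which passed, were counted in other lists. Among 35 Wnt ligands and receptors 0 passed, 19 differences were positive, and the median was 0.03; 14 of the 35 were dim in both groups. Wnt4, the ligand made by progenitors on their way to epithelium, was at 8.55 ± 0.29 (SD, n = 3) in wildtype and 9.63 ± 0.51 with activation; the difference was 1.08 (SE 0.25, adjusted p = 0.133), with no overlap. Fzd2 and Wnt5a differed by -0.52 (SE 0.17, adjusted p = 0.418) and 0.75 (SE 0.26, adjusted p = 0.474). Among 15 genes in the list of beta-catenin and its destruction complex 0 passed either, and the median was -0.17. Ctnnb1, which encodes beta-catenin, differed by 0.02 (SE 0.07, adjusted p = 0.989), and its other probe sets by 0.23 and 0.16. A transcript level does not report on stabilised protein, so it checks nothing about the labels. Dvl1, Pygo2 and Dvl3, which led this list, differed by -0.28, -0.34 and -0.46, and Dvl3 was dim in both groups.

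Genes of the nephron progenitors were mostly lower in the activated kidneys, with 6 past the test. Of 25 measured genes of this list 6 (24%) fell and 0 rose, against 0.266% and 0.331% of all genes. Of the 25 differences 23 were negative, and the median was -0.69. Groups did not overlap in 15 genes with activated below, against 7.09% of all genes, and in 1 gene with activated above. Six2, the homeobox gene that keeps these cells undifferentiated, read 10.19, 9.72 and 10.17 in wildtype and 8.31, 7.82 and 7.92 in activated kidneys. Capn6, a calpain-family gene, read 10.72, 10.46 and 10.31 in wildtype and 8.46, 8.60 and 8.49 in activated kidneys. Uncx, a homeobox gene, read 8.71, 8.99 and 9.02 in wildtype and 7.43, 7.64 and 7.15 in activated kidneys. In each of them the highest activated value lay more than 1 below the lowest wildtype value. The fall was -2.01 (SE 0.19, adjusted p = 0.00155) for Six2, -1.98 (SE 0.15, adjusted p = 0.000354) for Capn6 and -1.50 (SE 0.20, adjusted p = 0.00788) for Uncx.

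Meox1, another homeobox gene, read 7.49, 7.38 and 7.34 in wildtype and 5.82, 6.13 and 5.70 in activated kidneys. Traf1, an adaptor of tumour necrosis factor receptors, read 6.15, 5.97 and 6.34 in wildtype and 4.28, 4.12 and 4.94 in activated kidneys. Rspo1, a secreted protein that strengthens Wnt signalling at the receptor, read 7.86, 8.14 and 8.20 in wildtype and 6.52, 6.92 and 6.78 in activated kidneys. The groups were again apart, and for Traf1 all 3 activated values were dim. Meox1 fell by 1.52 (SE 0.25, adjusted p = 0.025), Traf1 by 1.71 (SE 0.30, adjusted p = 0.039) and Rspo1 by 1.33 (SE 0.22, adjusted p = 0.0283); for Traf1 the fall was at least 1.63-fold. Of the 6 genes, Six2 and Capn6 passed without any single array. Between 2 and 5 of the 6 passed in the fits without a single array, 2 of them without wildtype 2, wildtype 3 or activated 1, 3 without wildtype 1, 4 without activated 3 and 5 without activated 2; without both second arrays 4 passed.

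Members that missed the threshold included Cited1, a progenitor gene with a spread of 6.95 to 8.80 in wildtype and 5.08 to 6.10 with activation and a difference of -2.32 (SE 0.46, adjusted p = 0.0724). Eya1, the partner of Six2 and its relatives, differed by -1.47 (SE 0.35, adjusted p = 0.14) and was dim in the activated kidneys. Gdnf, the ligand that draws out the ureteric bud, differed by -1.28 (adjusted p = 0.123) and Meox2 by -1.23 (adjusted p = 0.0938). Wt1 differed by -0.37 (SE 0.14, adjusted p = 0.542) with no overlap of the groups. Tmem100 was the only member with activated wholly above wildtype, at 1.25 (adjusted p = 0.130). Cited1, Gdnf, Meox2 and Tmem100 were named with their values in view. The list of Wilms tumour genes shares Six2, Eya1 and Wt1 with this one, and of its 16 measured members 1, Six2, fell. Igf2, the growth factor gene of that list, differed by -0.03 (SE 0.17, adjusted p = 0.991) and Mycn by -0.46 (SE 0.19, adjusted p = 0.617).

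**Figure D3:**
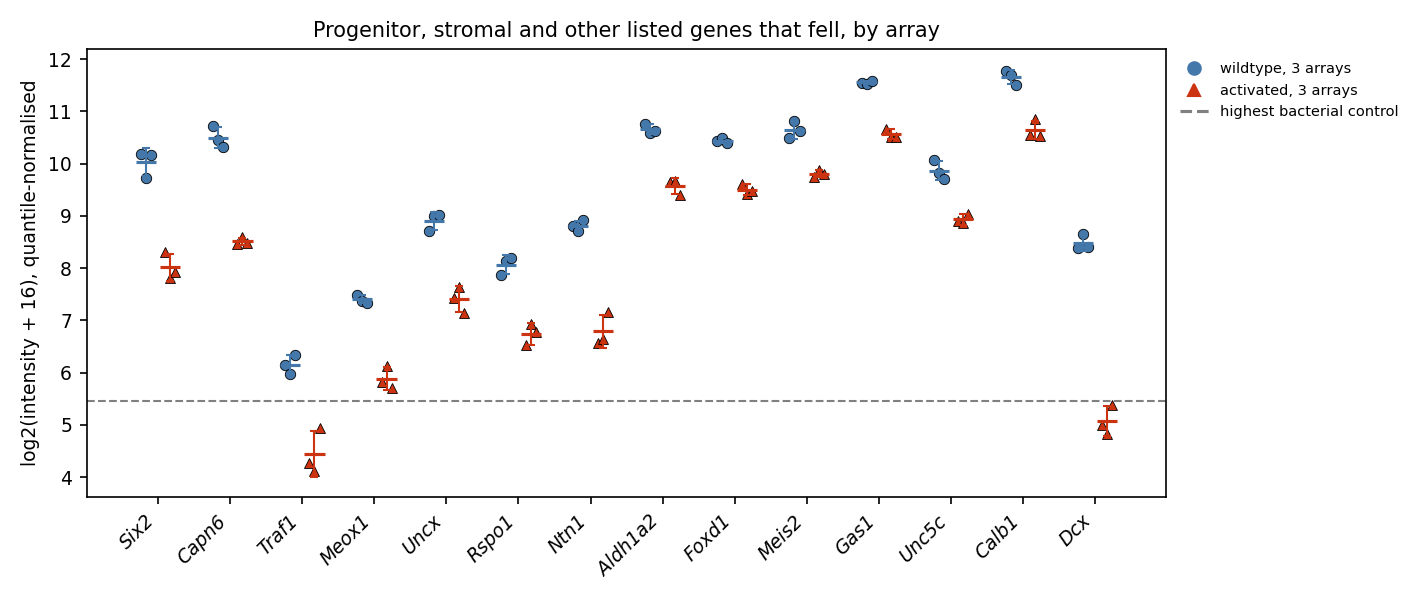
Each array's value, log2(intensity + 16) after quantile normalisation, is shown for 14 genes that fell and belong to the lists, with 3 wildtype arrays as blue circles, 3 activated arrays as red triangles, and bars for the group mean and 1 SD. Six2, Capn6, Traf1, Meox1, Uncx and Rspo1 are progenitor genes and Ntn1, Aldh1a2, Foxd1 and Meis2 stromal genes; the activated values of Traf1 and Dcx lie under the dashed line of the brightest bacterial control at 5.45.

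Genes of the next steps of nephron formation held no falls past the test. Of 21 genes of the early nephron 2 (9.52%) rose and 0 fell, against 0.331% and 0.266% of all genes. Of the 21 differences 14 were positive, and the median was 0.16. The pair that rose was Dkk1 and Bmp2, which belong to the Wnt and BMP lists as well. Irx3, a homeobox gene of the nephron's middle segments, was at 6.38 ± 0.29 (SD, n = 3) in wildtype and 7.67 ± 0.20 with activation; the difference was 1.30 (SE 0.25, adjusted p = 0.0616). Pax8 and Lhx1, markers of the first epithelium, differed by 0.27 and -0.26, with overlap; they were named with their values in view. In the podocyte list 0 of 13 genes passed, with a median of -0.04, and Vegfa and Foxc2 led it at 0.72 and -0.36. In the proximal tubule list 0 of 20 passed and 14 were dim in both groups, Ttc36 and Slc22a8 among them. Ttc36, Hnf4a and Slc22a8 led the list at -0.58, -0.74 and 0.51, and Hnf4a was dim in the activated kidneys.

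The ureteric bud gave a single call. Calb1, the calcium-binding protein calbindin of the bud and its tips, read 11.78, 11.70 and 11.51 in wildtype and 10.55, 10.85 and 10.53 in activated kidneys. The activated values all lay below the wildtype values. The fall was -1.02 (SE 0.12, adjusted p = 0.00495), and Calb1 passed without any single array. It was the 1 called gene of 27 in the list of ureteric trunk, collecting duct and urothelium, whose median was -0.14. Pparg, dim in wildtype, and Scnn1a, dim in the activated kidneys, followed at 0.66 and -0.85. Of 13 genes of the ureteric tip 0 passed and the median was -0.14, with Myb, Etv4 and Sox9 at -0.78, -0.69 and -0.50. In these 3 activated lay wholly below wildtype, as in 7.09% of all genes, and Etv4 was dim in both groups. Wnt9b and Epcam, which mark the bud's epithelium and were named with their values in view, differed by -0.14 and -0.18, with overlap.

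Stromal genes fell in part. Of 25 measured genes of the kidney stroma 4 (16%) fell and 0 rose, against 0.266% and 0.331% of all genes. Of the 25 differences 16 were negative, where 6740 of all 12393 were, and the median was -0.24. Ntn1, the guidance ligand netrin 1, read 8.80, 8.72 and 8.91 in wildtype and 6.57, 6.65 and 7.16 in activated kidneys. Aldh1a2, the enzyme that makes retinoic acid, read 10.76, 10.58 and 10.62 in wildtype and 9.65, 9.67 and 9.39 in activated kidneys. The forkhead gene Foxd1, which defines the stromal progenitors, read 10.43, 10.49 and 10.40 in wildtype and 9.62, 9.41 and 9.48 in activated kidneys. Meis2, a homeobox gene, read 10.49, 10.81 and 10.62 in wildtype and 9.75, 9.88 and 9.79 in activated kidneys. In these 4 genes the activated values were all below the wildtype values, by the widest margin for Ntn1. The falls were -2.02 (SE 0.22, adjusted p = 0.00236) for Ntn1 and -1.09 (SE 0.13, adjusted p = 0.00454) for Aldh1a2. They were -0.93 (SE 0.12, adjusted p = 0.00734) for Foxd1 and -0.83 (SE 0.13, adjusted p = 0.0183) for Meis2. Ntn1 and Aldh1a2 passed without any single array. Foxd1 did not pass without wildtype 1, 2 or 3, and Meis2 passed only without activated 2 among the single arrays.

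The stromal list did not move together. Fst, the gene of the activin inhibitor follistatin, and Dcn, a small proteoglycan, differed by 1.43 and 0.57 with activated above wildtype, while Pdgfra and Lum differed by -0.56 and -0.50 with activated below; Fst, Pdgfra and Lum were named with their values in view. Aldh1a2 was also the 1 called gene of 17 in the retinoic acid list, whose median was -0.08. Crabp2 and Aldh1a1 followed at -0.81 (SE 0.20, adjusted p = 0.17) and -1.08 (SE 0.34, adjusted p = 0.381), both with activated below wildtype. Ntn1 and its receptor gene Unc5c were the pair called (6.67%) among 30 guidance genes, against 0.266% of all genes that fell. In this list 20 differences were positive and the median was 0.17. Unc5c fell by 0.94 (SE 0.15, adjusted p = 0.0228), and Robo1, a receptor of the Slit ligands, differed by 0.89 (SE 0.19, adjusted p = 0.0885). Unc5c no longer passed without wildtype 1, 2 or 3 or without activated 1 or 3.

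Among genes of BMP and activin signalling, 3 ligand genes and 1 target gene rose. Of 29 measured genes of the BMP and TGF-beta list 4 (13.8%) rose and 0 fell, against 0.331% and 0.266% of all genes. Of the 29 differences 19 were positive and 10 negative, and the median was 0.32. In 12 genes activated lay wholly above wildtype, against 5.41% of all genes, and in 1 wholly below. Bmp4 read 6.93, 6.59 and 6.08 in wildtype and 8.24, 9.23 and 8.31 in activated kidneys and Bmp2 7.47, 6.64 and 6.85 in wildtype and 8.95, 8.24 and 9.39 in activated kidneys. Inhba, the activin A subunit, read 5.74, 5.93 and 5.51 in wildtype and 7.59, 7.23 and 7.57 in activated kidneys. Msx2, a homeobox target of BMP signalling, read 5.24, 4.67 and 4.72 in wildtype and 7.58, 7.79 and 7.69 in activated kidneys. Msx2 was tight within each group, while the activated values of Bmp4 and Bmp2 spread over about 1 on the log2 scale and stayed above wildtype.

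Bmp4 rose by 2.06 (SE 0.32, adjusted p = 0.0205), Bmp2 by 1.87 (SE 0.32, adjusted p = 0.0327) and Inhba by 1.74 (SE 0.26, adjusted p = 0.0162). Msx2 rose by 2.81 (SE 0.27, adjusted p = 0.00156), at least 4.71-fold against the control signal. Msx2 passed without any single array. Bmp2, Bmp4 and Inhba passed without activated 2 and did not pass without any of the other 5 arrays taken singly, so that 1 of the 4 was left in those fits. Msx1, the paralogue of Msx2, differed by 1.24 (adjusted p = 0.115), Id1 by 0.76 and Bambi by 1.16. Tgfb3 was the 1 gene with activated wholly below wildtype, at -1.10. These 4 genes were named with their values in view and did not pass.

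Other signalling lists held few calls. Of 16 hedgehog genes 1 fell and the median was -0.13. Gas1, a co-receptor of the hedgehog ligands, read 11.55, 11.53 and 11.59 in wildtype and 10.67, 10.51 and 10.52 in activated kidneys, with the activated values below all of wildtype, and fell by 0.99 (SE 0.10, adjusted p = 0.00182). Dhh, dim in wildtype, and Ihh, dim in both groups, differed by 0.80 and -0.68. In the FGF and ERK list 0 of 22 passed, 16 differences were negative and the median was -0.19, with Fgf1 at -1.11 (SE 0.35, adjusted p = 0.382) and Klb at -0.80. Both Fgf1 and Klb were dim in the activated kidneys. In the Notch list 0 of 19 passed, the median was -0.11, and Hey1, Hey2 and Dll3 (dim in the activated kidneys) led it at 0.70, 1.01 and -0.78. In the list of imprinted genes and the insulin-like growth factor axis 2 of 25 (8%) fell, against 0.266% of all genes. Plagl1, an imprinted zinc finger gene, read 12.80, 12.74 and 12.68 in wildtype and 12.30, 12.16 and 12.16 in activated kidneys. It had the smallest fall of the called genes, -0.53 (SE 0.08, adjusted p = 0.0218), and its 6 values stood far above the control signal. Igfbp5, a binding protein of insulin-like growth factors, fell by 0.71 (SE 0.12, adjusted p = 0.0401), and Grb10 differed by -0.42 (SE 0.09, adjusted p = 0.0794). In the 6 fits without a single array Igfbp5 passed in 0 and Plagl1 in 1, that without activated 2. Without both second arrays neither Plagl1 nor Igfbp5 passed.

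Genes of hypoxia and glycolysis were mostly higher, with a single call. Of 31 measured genes 1 (3.23%) rose, against 0.331% of all genes, and 29 differed positively, where 45.6% of all genes did. In 17 genes activated lay wholly above wildtype, against 5.41% of all genes, and the median was 0.45. Bnip3, which targets mitochondria for breakdown, read 8.26, 8.74 and 8.61 in wildtype and 9.94, 9.42 and 10.01 in activated kidneys, with the activated values above all of wildtype, and rose by 1.25 (SE 0.20, adjusted p = 0.0228). It passed without activated 2 and lost its call without any of the other arrays taken singly. Slc2a3, a glucose transporter, and Ldha, a lactate dehydrogenase chain, differed by 1.64 (SE 0.37, adjusted p = 0.123) and 1.15 (SE 0.26, adjusted p = 0.123). This list's median in the higher run was -0.03.

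Of 33 cell cycle genes 0 passed, and the median was -0.07. Mki67 and Top2a, general markers of dividing cells named with their values in view, differed by 0.05 and -0.16. The cell cycle inhibitor Cdkn1a, which is also a p53 target, differed by 1.25 (SE 0.24, adjusted p = 0.0592) with activated above wildtype. The other 15 measured p53 targets lay between -0.56 and 0.53, and 0 of the 16 passed. Among 21 immediate early genes 0 passed and the median was 0.20, with Ier3, Dusp1 and Klf6 at 1.15, 0.56 and 0.45. In the heat shock list (17 genes, median -0.03) and the interferon list (15 genes, median -0.02) 0 passed. Dnajb5 and Ifit3 led them at -0.74 and -0.95, and Ifit3 was dim in both groups. Of 31 Hox genes 0 passed, 22 differences were negative, and the median was -0.21, with Hoxc8, Hoxd10 and Hoxb7 (dim in both groups) at -0.55, 0.34 and -0.69.

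The lists of matrix genes gave no calls in either direction. The proteoglycan gene Srgn, which passed, was in none of the lists and is described below. Of 29 collagen genes 0 passed and the median was -0.08, and its leading members were Col6a2, Col6a1 and Col9a1 at 0.63, 0.64 and 0.61. Among 33 proteoglycans and other matrix proteins 0 passed and the median was -0.06. Bgn, the small proteoglycan biglycan, came nearest at 0.82 (SE 0.16, adjusted p = 0.0693), with Vcan at -0.48 and Dcn at 0.57.

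Markers of other cell types were compared because a cultured kidney can hold them. Endothelial genes had a median of 0.20, with 15 of 21 positive, 0 past the test, and Pecam1 (dim in both groups), Flt1 and Plvap at 0.98, 0.75 and 0.50, all with overlap. Their mean over the list lay between 6.13 and 6.78 in wildtype and between 6.59 and 6.99 in activated kidneys. Macrophage genes (18, median -0.0010, 0 past the test) and erythroid genes (14, median 0.04, 0 past the test) overlapped between groups in their list means. Of 22 muscle genes 16 were dim in both groups and 0 passed, with Myl1 (dim in both groups) at -1.04 and Acta1 (dim in wildtype) at 0.89. Of 14 cartilage and bone genes 8 and of 16 gonad, adrenal and mesonephros genes 10 were dim, and 0 of either passed. Skin-type epithelium (14 genes, 8 dim) and glia and neural crest (15 genes, 3 dim) each had 1 call, the same gene, Tfap2c, with medians of -0.03 and -0.09.

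Of 22 neuron markers 12 were dim in both groups, and 2 (9.09%) fell, against 0.266% of all genes. Dcx, a microtubule-binding protein of migrating neurons, read 8.39, 8.65 and 8.40 in wildtype and 4.99, 4.83 and 5.39 in activated kidneys. Stmn2, a regulator of neuronal microtubules, read 7.03, 7.56 and 7.18 in wildtype and 5.89, 5.56 and 5.89 in activated kidneys. The activated values of Dcx were all dim, and those of both genes lay below every wildtype value. Dcx fell by 3.41 (SE 0.25, adjusted p = 0.000354), at least 8.18-fold against the control signal, and Stmn2 by 1.48 (SE 0.26, adjusted p = 0.0444). Elavl4 differed by -1.29 (SE 0.28, adjusted p = 0.112). In the other direction Gap43 and Tubb3 differed by 1.62 and 1.04 with activated above wildtype, and these were named with their values in view. The list median was 0.10, and the list mean lay between 5.48 and 5.53 in wildtype and between 5.38 and 5.48 in activated kidneys. Among the other probe sets of Dcx 1 gave -3.55, and a dim one gave 0.35. Stmn2 did not pass without any single array, and Dcx passed without each of them.

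**Figure D4:**
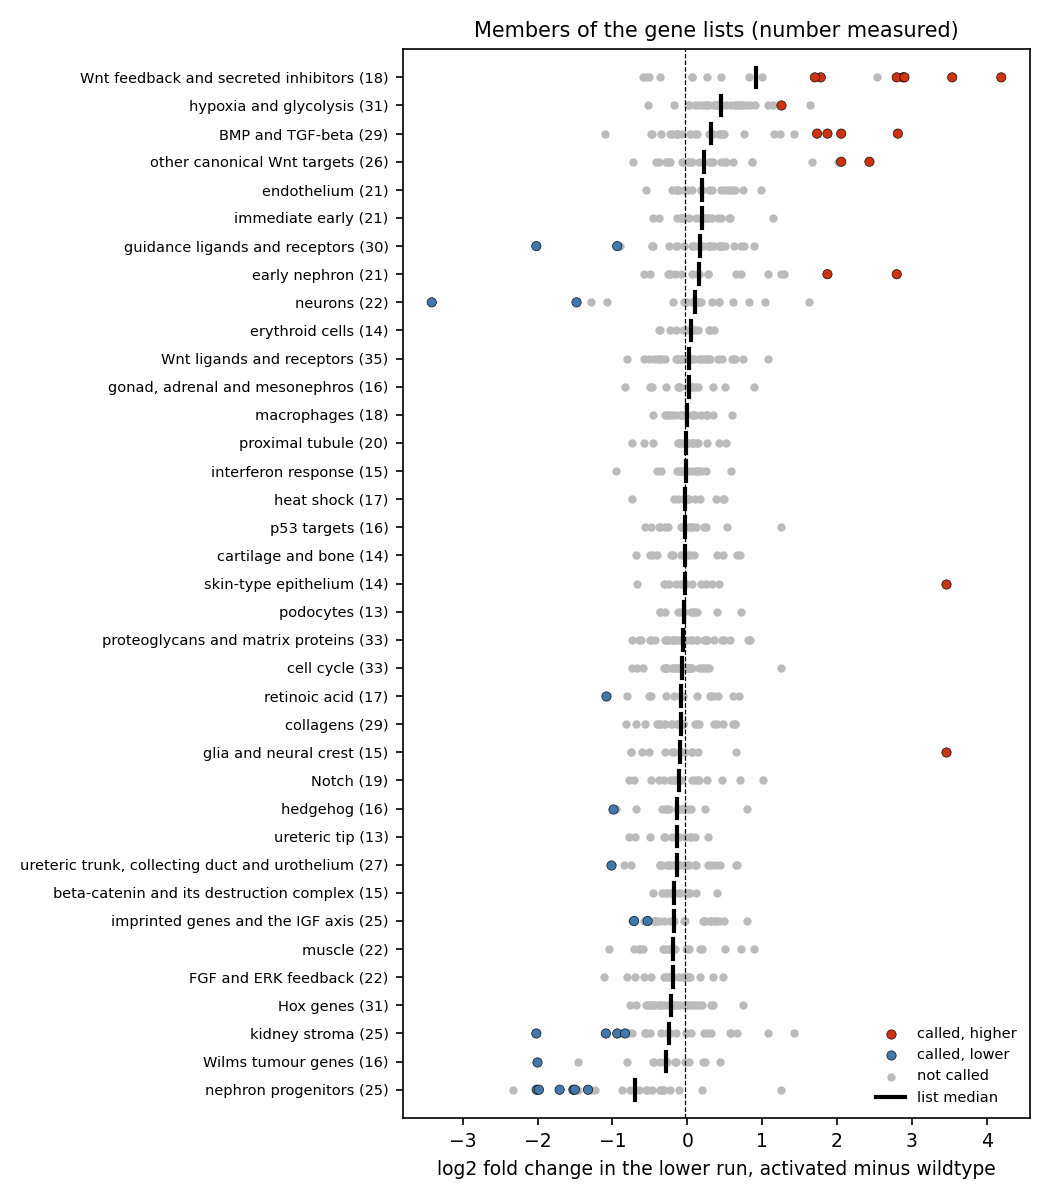
The log2 difference of every measured member is shown for 37 gene lists, ordered by the list median (black bar), with members that rose in red, members that fell in blue and the others in grey; numbers in brackets are the genes measured, and the dashed line is the median of all genes at -0.03. The list of Wnt feedback and secreted inhibitors has the highest median at 0.92 and the nephron progenitor list the lowest at -0.69.

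Of the 74 called genes 43 were in none of the lists, 27 that rose and 16 that fell. The largest rises among those measured in both groups were those of Armh4, Tent5c, Srgn and Prdm1. Efhd1, a calcium-binding protein of mitochondria, read 5.50, 4.16 and 4.56 in wildtype and 8.22, 8.21 and 8.49 in activated kidneys. Mab21l1, known from eye development, read 4.08, 4.84 and 4.06 in wildtype and 7.61, 7.22 and 7.66 in activated kidneys. Tfap2c, the transcription factor AP-2 gamma of the skin and neural crest lists, read 4.53, 4.14 and 4.72 in wildtype and 8.07, 7.51 and 8.18 in activated kidneys. All 3 were dim in wildtype on average and clearly measured in each activated array. The bounds were at least 7.17-fold for Efhd1, at least 4.13-fold for Mab21l1 and at least 5.53-fold for Tfap2c, with fitted rises of 3.57 (SE 0.35, adjusted p = 0.00156), 3.17 (SE 0.31, adjusted p = 0.00156) and 3.46 (SE 0.30, adjusted p = 0.000887). Mab21l1 had a second probe set at 2.30, and Tfap2c others at 2.14 and 1.80.

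Armh4 read 5.89, 6.90 and 5.73 in wildtype and 9.03, 8.68 and 9.22 in activated kidneys. Tent5c, a poly(A) polymerase, read 5.84, 5.70 and 5.10 in wildtype and 7.91, 8.31 and 8.23 in activated kidneys. Srgn, the granule proteoglycan serglycin, read 6.59, 6.31 and 6.43 in wildtype and 9.10, 8.76 and 9.25 in activated kidneys. The groups were separate in all 3, with wildtype 2 the highest wildtype value of Armh4 at 6.90. The rises were 2.80 (SE 0.32, adjusted p = 0.00364) for Armh4, 2.60 (SE 0.28, adjusted p = 0.00236) for Tent5c and 2.59 (SE 0.21, adjusted p = 0.000557) for Srgn. Prdm1, the transcriptional repressor Blimp1, read 6.12, 5.15 and 6.26 in wildtype and 8.52, 7.97 and 8.77 in activated kidneys, and Htra1, a secreted serine protease, read 5.56, 5.31 and 5.69 in wildtype and 8.02, 7.28 and 7.89 in activated kidneys. In both genes activated 2 was the lowest activated array and still above all wildtype arrays. Prdm1 rose by 2.58 (SE 0.34, adjusted p = 0.00788) and Htra1 by 2.21 (SE 0.28, adjusted p = 0.00712).

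The other fitted rises outside the lists were at most 2.19. Among nuclear and signalling proteins they were Bcl11a at 2.03, the aryl hydrocarbon receptor gene Ahr at 1.59, the repressor gene Trps1 at 1.21, the mesenchymal homeobox gene Prrx1 at 0.90, the G protein gene Gnai1 at 1.32, the kinase genes Mark1 at 1.94 and Dclk1 at 1.36, and Fgf13, an intracellular member of the FGF family, at 1.79. Among surface and secreted proteins they were Chodl at 2.19, Gabrb1 at 1.91, Thy1 at 1.52, Itm2a at 1.17, Cd83 at 0.97, Prss23 at 1.22 and C1qtnf12 at 0.96. The remaining ones were the metallothionein gene Mt3 at 2.00, Gask1b at 1.14, Pdzrn3 at 1.07, Nampt of NAD synthesis at 0.90 and Papss1 of sulphate activation at 0.88. Their adjusted p ran from 0.00147 for Itm2a to 0.0492 for Gask1b. Chodl, Mt3 and Gabrb1 were dim in wildtype, with bounds of at least 2.57-fold, 3.06-fold and 2.03-fold.

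Among the falls outside the lists, Cdhr1, a cadherin known from photoreceptors, read 7.14, 7.56 and 7.21 in wildtype and 5.23, 5.23 and 5.02 in activated kidneys. H2-Aa, a chain of the class II histocompatibility complex, read 6.67, 6.81 and 7.18 in wildtype and 5.19, 4.21 and 5.06 in activated kidneys. Dock5, an activator of the small GTPase Rac, read 8.45, 8.66 and 8.54 in wildtype and 6.91, 6.04 and 6.98 in activated kidneys. The activated values of Cdhr1 and H2-Aa were dim, and in none of the 3 did the groups overlap. The falls were -2.14 (SE 0.26, adjusted p = 0.00495) for Cdhr1, at least 3.61-fold, and -2.07 (SE 0.33, adjusted p = 0.025) for H2-Aa, at least 2.70-fold. Dock5 fell by 1.91 (SE 0.27, adjusted p = 0.0133). A second probe set of H2-Aa, dim in both groups, gave 0.54, the opposite sign.

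Cap1, which binds actin and adenylyl cyclase, read 8.20, 7.50 and 7.70 in wildtype and 6.21, 6.19 and 6.16 in activated kidneys. Nfia, a transcription factor of the nuclear factor I family, read 8.78, 8.68 and 8.70 in wildtype and 7.63, 6.55 and 7.43 in activated kidneys. Actn3, the alpha-actinin of fast muscle fibres, read 7.52, 7.37 and 7.03 in wildtype and 5.94, 5.79 and 5.70 in activated kidneys. Ttc28 read 10.31, 10.31 and 9.71 in wildtype and 8.82, 8.44 and 8.75 in activated kidneys. The activated arrays lay below the wildtype arrays in all 4, with activated 2 the lowest for Nfia at 6.55. The falls were -1.61 (SE 0.25, adjusted p = 0.0218) for Cap1 and -1.52 (SE 0.27, adjusted p = 0.0454) for Nfia. They were -1.50 (SE 0.26, adjusted p = 0.0327) for Actn3 and -1.44 (SE 0.19, adjusted p = 0.00933) for Ttc28. The remaining falls were Moxd1 at -1.09, Zfp703 at -1.08, Ptprd at -1.03, Sel1l3 at -1.02, the tropomyosin gene Tpm2 at -1.01, the ion cotransporter gene Slc12a2 at -0.94, Tgm2 at -0.91, Tob1 at -0.85 and Foxp1 at -0.76. Their adjusted p ran from 0.00734 for Tpm2 to 0.0444 for Zfp703.

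Where a called gene had further probe sets, most gave the same direction. Of the 74 genes 37 had 69 other probe sets, of which 64 had the same sign, 42 the same sign with no overlap of the groups, and 14 passed with adjustment over all probe sets. The opposite sign was found in 5, 1 each of Dcx, H2-Aa and Nfia and 2 of Tgm2. Over all genes 12.5% had no overlap in either direction and 0.597% passed. The other probe sets were read on the same arrays from which the genes were called, so their agreement is not independent of the calls.

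The same genes were then set beside the higher run, whose 3 wildtype and 3 activated arrays took no part in these calls. There 1 gene (0.00807%) passed, Apcdd1. Of the 41 rises of the lower run 28 differed positively in the higher run, where 49.7% of all genes did, and 12 of them with no overlap of the groups, against 5.6% of all genes. The median of the 41 was 1.91 in the lower and 0.19 in the higher run. Of the 33 genes that fell 25 differed negatively, where 50.3% of all genes did, and 6 of them with no overlap of the groups, against 5.73% of all genes. Their median was -1.09 in the lower and -0.19 in the higher run. All 74 differences were larger in size in the lower run, the run in which the genes were called, so that a smaller size elsewhere is in part fixed by that choice.

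The difference between the runs passed an interaction test in 34 of the 74 genes, 23 that rose and 11 that fell, and did not pass in the other 40. Of all genes 41 (0.331%) passed it. The 74 genes were called from lower-run arrays that also enter this test, so a high share among them is in part fixed by that choice. Of those 34 genes, 17 passed with arrays centred on their medians. Without 1 lower-run array, 21 passed without wildtype 1, 18 without wildtype 3, 20 without activated 1 and 14 without activated 3. Without 1 higher-run array, 15 passed without wildtype 1, 18 without wildtype 2 or without activated 1, and 17 without activated 2. Efhd1 differed by 3.57 in the lower and 0.00 in the higher run, Tent5c by 2.60 and -0.25, and Notum by 2.89 and 0.13. Dcx differed by -3.41 and -0.20, and Cdhr1 by -2.14 and -0.03. Of the genes whose groups were also apart in the higher run, Mab21l1 stood at 3.17 and 1.28 and Gask1b at 1.14 and 0.97, and the difference between their runs did not pass (adjusted p = 0.0574 for Mab21l1 and 0.999 for Gask1b). Cd83 was the 1 called gene whose groups separated the other way in the higher run, at 0.97 and -0.24. Measured from the lower-run wildtype mean, the 41 genes averaged 2.05, 1.91 and 2.12 higher in the lower-run activated arrays, 0.59 to 0.62 higher in the higher-run activated arrays and 0.30 to 0.36 higher in the higher-run wildtype arrays. For the 33 genes that fell the averages were -1.30, -1.47 and -1.30, then -0.47 to -0.26, and -0.30 to -0.08. What differs between the runs besides their numbers is not given in the labels, and its part in these values was not tested.

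**Figure D5:**
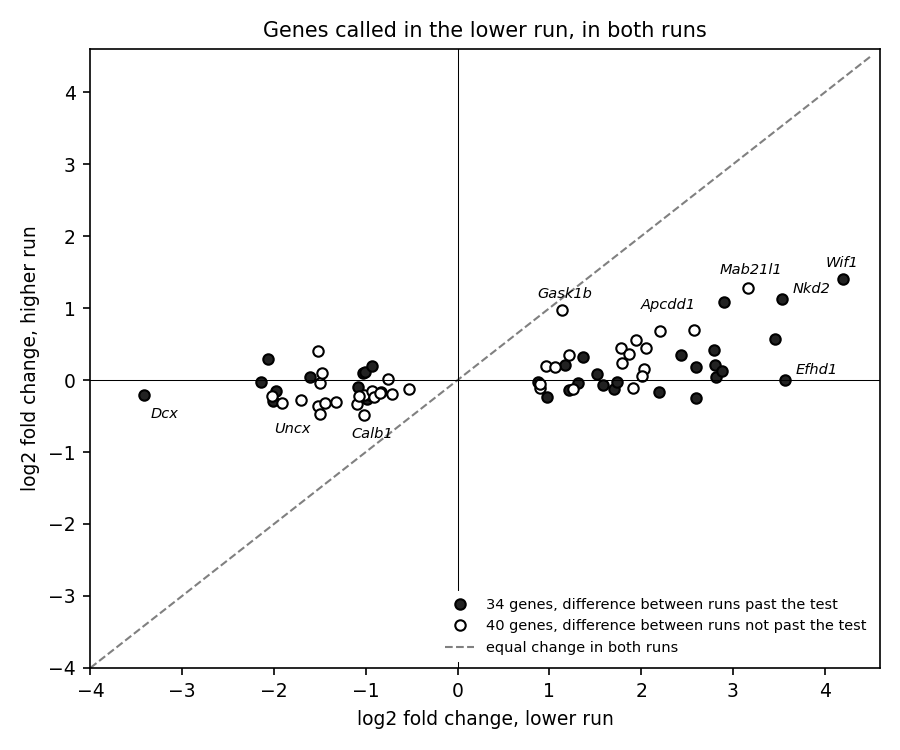
The log2 difference of each of the 74 called genes in the higher run is plotted against that in the lower run, with filled circles for the 34 genes whose difference between the runs passed the test and open circles for the other 40; the dashed line marks equal differences. Wif1, Mab21l1, Nkd2, Apcdd1 and Gask1b lie at 0.97 or above in the higher run, and the median of the 41 genes that rose is 0.19 there.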

How the data were processed

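The deposited table of the series holds the intensity of 22690 probe sets in every array, on a linear scale by its values. The authors had scaled each array, since after trimming 2% from each end the array means lie between 250.099 and 250.126; the labels and headers used here do not name the software. The values carry no detection calls, and the number of arrays limits the precision.

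From these, log2(intensity + 16) was taken and quantile-normalised over all 12 arrays, which understates folds of dim genes. Of the probe sets, 20380 had 1 gene symbol in the platform annotation, and 691 with several, 1555 with none listed and 64 controls were left out. For each of 12393 genes the probe set of highest mean stood for the gene, and 12369 were in the RefSeq table of GRCm38.p6. The control signal is the highest of 27 bacterial probe sets, 5.45 in the lower run. Folds of genes under it are bounds, computed with each dim array raised to that signal. The 3 against 3 arrays of each run were fitted separately with limma 3.58.1 in R 4.3.3, with a variance trend and Benjamini-Hochberg adjustment over all genes, and the difference between runs as an interaction over the 12 arrays. Adjusted p-values are limma's throughout. The calculations were tested on simulated data. Plots used matplotlib 3.10.9.

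The members, the 37 gene lists and the tests were chosen with earlier results of these data known. Of 895 list entries 794 were measured, 726 distinct genes. Named by rule were every gene past the test, the 3 members of lowest adjusted p in every list, and Ctnnb1, Six2, Wt1, Igf2, Myc, Mycn and Axin2; other genes are said to be named with their values in view, which means that they were chosen after seeing them. The alternatives were other normalisations, pseudocounts, filters, probe set rules, variance settings and thresholds, array weights, a 5' to 3' covariate, and leaving out arrays.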

Additional observations from a re-analysis of the deposited data

Results flagged for a closer look

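The effect of activation differed between the lower and the higher run in 41 genes (0.331% of those tested) by limma's interaction test, 29 with a positive and 12 with a negative difference. With arrays centred on their medians 15 were positive and 3 negative. Without 1 lower-run array 27 genes passed without wildtype 1, 23 without activated 1 and 16 without activated 3. With higher-run wildtype 1 left out 16 passed, with wildtype 2 left out 18, and with wildtype 3 left out 25. With higher-run activated 1 left out 19 passed, and with activated 2 left out 17. Values in brackets are the lower-run difference minus the higher-run difference, on the log2 scale. Among genes that rose in the lower run it was positive for Efhd1 (3.57), Tfap2c (2.89), Tent5c (2.85), Wif1 (2.79), Msx2 (2.77), Notum (2.75), Armh4 (2.59), Nkd2 (2.42), Srgn (2.41), Dkk1 (2.38), Chodl (2.36) and En2 (2.08). It was also positive for Frzb (1.83), Apcdd1 (1.82), Inhba (1.76), Ahr (1.66), Thy1 (1.44), Gnai1 (1.36), Prss23 (1.35), Cd83 (1.21), Dclk1 (1.04), Itm2a (0.96) and Papss1 (0.91). Among genes that fell in the lower run it was negative for Dcx (-3.21), H2-Aa (-2.37), Cdhr1 (-2.11), Capn6 (-1.84), Six2 (-1.72), Cap1 (-1.65), Unc5c (-1.13), Ptprd (-1.13), Tpm2 (-1.12), Aldh1a2 (-0.99) and Gas1 (-0.73). Of these genes Efhd1, Tfap2c, Wif1, Msx2, Nkd2, Chodl and En2 were dim in lower-run wildtype and Dcx, H2-Aa and Cdhr1 in the lower-run activated kidneys, so that the sizes rest in part on dim values. The adjusted p of these 34 genes ran from 0.000337 for Dcx to 0.0469 for Inhba.

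In the other 7 genes, named here after their values were seen, the groups separated in opposite directions in the 2 runs, and none had passed in the lower run. From the lower to the higher run the difference went in Gata4 from -0.83 to 0.88 (difference -1.71, adjusted p = 0.0246), in Dact1 from 0.52 to -0.27 (difference 0.79, adjusted p = 0.0222), in Ifitm1 from 0.71 to -0.38 (difference 1.09, adjusted p = 0.0469), in Fhod3 from 1.01 to -0.37 (difference 1.38, adjusted p = 0.0222), in Rorb from 1.22 to -0.74 (difference 1.96, adjusted p = 0.0323), in A2m from 1.42 to -0.60 (difference 2.03, adjusted p = 0.0183) and in S100g from 1.32 to -1.30 (difference 2.61, adjusted p = 0.0445). By its group means Gata4, a transcription factor gene of gonad and heart, lay under the control signal in both groups of both runs. That signal was 5.45 in the lower and 5.27 in the higher run, and the difference of Gata4 rests wholly on dim values. Rorb and S100g lay under it in wildtype of the lower run, and Rorb in both groups of the higher run, so that these differences rest in part on dim values. The groups of 3 arrays are too small for a test of single arrays that stand apart.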

How the results depend on the processing

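In the lower run 41 genes rose, 33 fell and 41 differed between the runs. In that order the counts were 26, 13 and 24 with no variance trend, 117, 69 and 88 with array weights, 95, 59 and 95 with the 5' to 3' Gapdh ratio as a covariate, and 22, 12 and 13 at an adjusted p of at most 0.01. At an adjusted p of at most 0.1, 67 rose and 63 differed between the runs. With the spread pooled over 12 arrays 111 rose and 77 fell, and with a robust variance prior 64 rose. Averaging a gene's probe sets gave 21 that fell, and arrays centred on their medians 18 that differed between the runs. Leaving out 1 array gave 18 to 51 that rose, 9 to 36 that fell and 16 to 47 that differed. The other alternatives changed these counts by less than 1.5 times, and 0 of the 74 called genes changed sign in any alternative in which they were tested. Where arrays were only left out this was fixed in advance, since the groups of the called genes did not overlap. Of these genes 16 passed in all 21 alternatives with the threshold kept, and Chodl, En2 and Mab21l1 in the 20 in which they were tested, since they were among the dimmest 40%. Among uncalled genes, Ctnnb1 turned to -0.059 as deposited and -0.070 with arrays centred. Leaving out 1 array gave -0.013 (without activated 3) to 0.047 for Ctnnb1 and -0.65 to 0.017 (without activated 2) for Hbb-bh1, and for Igf2 -0.22 to 0.12, with a positive sign without wildtype 1, wildtype 3, activated 1 or activated 3. The cause of these changes was not tested. The median difference of all genes was -0.027, against -0.031 as deposited, -0.043 with arrays centred and -0.027 with the 6 lower-run arrays normalised alone. No paired analysis was possible because the labels give no replicate numbers that the groups share. The signal over background limits the dim genes: 27.9% of all genes had both means under the control signal.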
